A study of Solanum lycopersicum with 18 samples.

Results

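The difference between the tomato (Solanum lycopersicum) cultivars Stupicke and Criollo was measured in seeds primed with methyl jasmonate (MeJA), using the 3 Stupicke MeJA and the 3 Criollo MeJA libraries, 6 of the 18 libraries of the series. Members were chosen by their labels alone, and all genes of the deposited tables entered the comparison. Seeds of both groups came from mature fruits of greenhouse plants and were imbibed for 48 h in the dark in a polyethylene glycol solution of -1 MPa (osmopriming) that held 2 mM MeJA, then washed and dried again for 48 h. The mock seeds of each cultivar, used here only to set the MeJA-state difference beside the one without the elicitor, received the same priming without MeJA. Each of the 3 biological replicates of a group was a dish of 30 whole seeds, from which poly(A) RNA was sequenced. A cultivar is thus represented by one seed stock, so that the genotype and the growth and maturity of that stock cannot be told apart. Because whole seeds were extracted, fewer cells of a type and less RNA per cell cannot be told apart either.

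Jasmonates are the hormones through which plants respond to wounding, chewing insects and many necrotrophic fungi. The active hormone binds the F-box receptor COI1, which leads to the breakdown of JAZ repressors and frees MYC2 and related transcription factors to switch on defence genes such as proteinase inhibitors and defensins. A mature seed also carries defences laid down during development, among the storage proteins, oil bodies and late embryogenesis abundant (LEA) proteins that fill the embryo and endosperm before drying.

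The 6 libraries held between 19982933 and 20560261 estimated counts. Libraries of one group were alike, with Pearson's r across genes (which are not independent replicates) of 0.980 to 0.987 among the Stupicke MeJA libraries and 0.982 to 0.988 among the Criollo MeJA libraries. Principal components were computed over all Stupicke and Criollo libraries, mock and MeJA. The first carried 61.2% of their variance and placed all 3 Stupicke MeJA libraries apart from the Criollo MeJA libraries. The cultivar labels were checked with genes nearly private to one cultivar in the mock libraries, none of which enters the comparison. The 17 genes so chosen for Stupicke summed to 2877, 2496 and 2835 counts in Stupicke MeJA and to 14, 16 and 12 counts in Criollo MeJA. The 26 genes chosen for Criollo summed to 22, 20 and 14 counts in Stupicke MeJA and to 9478, 10066 and 9757 counts in Criollo MeJA, so every library matched its label. Stupicke MeJA 3 stood apart within its group, with 50 genes at least 4-fold above both other replicates, against 4 and 2 such genes in Stupicke MeJA 1 and 2 and 0, 7 and 1 in Criollo MeJA 1 to 3. Seed markers were abundant and green tissue markers were not. The 21 seed storage and oil body genes took 3.01 to 3.80% of all TPM (an abundance unit scaled for gene length and library total) in Stupicke MeJA and 0.946 to 1.57% in Criollo MeJA, and the 6 photosynthesis genes summed to 2.67 to 3.18 TPM in Stupicke MeJA and 3.48 to 4.23 TPM in Criollo MeJA.

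Of 19914 genes tested, 4466 (22.4%) differed between the cultivars under MeJA at an adjusted p under 0.05, of which 2196 (11.03%) were higher and 2270 (11.4%) lower in Stupicke. These genes are called differentially expressed genes (DEGs) below. Fold changes are log2 ratios of Stupicke over Criollo from edgeR's quasi-likelihood fit, each with a standard error (SE) derived from its F statistic. Taken without sign, the log2 fold changes of the DEGs had a median of 0.90, and 2001 DEGs (10.0% of genes) differed at least 2-fold and 743 at least 4-fold. The 3 and 3 TPM values did not overlap for 4312 of the DEGs. The DEGs were chosen by a test on these same libraries, so this separation is partly a product of that choice. The share without overlap over all genes tested was not counted. The number of DEGs moved with the libraries in the fit. It was 7224 (35.8% of the genes then tested) when the Micro-Tom mock 3 library, which is no member of the comparison, was left out. Pearson's r ran from 0.932 to 0.991 among the Micro-Tom mock libraries. The next lowest value within a group was 0.975, in Stupicke mock. The number of DEGs was 2828 without Stupicke MeJA 3, 2957 without Stupicke MeJA 2, 2964 without Criollo MeJA 1 and 2931 without Criollo MeJA 3. Over all genes the log2 fold changes had a median of -0.00 on the count scale and of -0.10 on the log2(TPM + 1) scale. On that scale limma called 1426 genes higher and 2807 lower (33.7% of its calls higher, against 49.2% in the main test).

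Annotation text was at hand for 2634 of the tested genes, from tables of the study that were drawn up largely from MeJA responses in these same libraries. Of these annotated genes 35.2% were called, and 19.4% were higher and 15.8% lower in Stupicke MeJA, and their median log2 fold change was -0.04. These shares and this median are the background beside which the gene lists below were read. Counts are those of edgeR unless another tool is named. The background itself moved with the fit, to 362 higher and 275 lower without Criollo MeJA 3 and 385 higher and 270 lower without Stupicke MeJA 3, against 512 higher and 415 lower with all libraries. The plot of calls by gene list sets the lists beside one another.

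**Figure D1:**
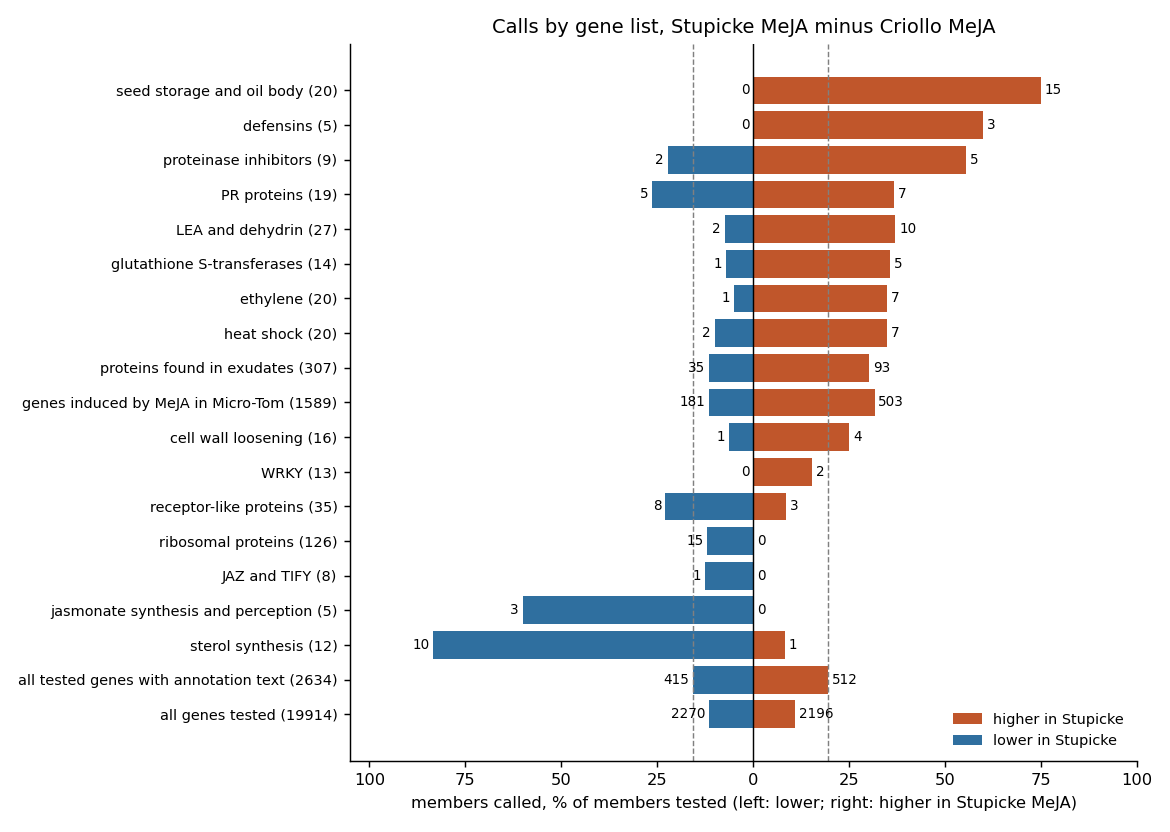
Share of the tested members of each gene list called higher (right, orange) or lower (left, blue) in Stupicke MeJA than in Criollo MeJA, in percent of members tested; the number of tested members stands after each list name, the number called beside each bar, and dashed lines mark the shares over all tested genes with annotation text (19.4% higher, 15.8% lower). Seed storage and oil body genes reached 75.0% higher and sterol synthesis genes, a list drawn up after the values were seen, 83.3% lower.

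Genes of the seed reserves were mostly higher. Of 20 storage and oil body genes tested, 15 were higher in Stupicke MeJA and none was lower, with a median log2 fold change of 1.41. The vicilin gene Solyc09g082340, a storage globulin, had 13399, 18124 and 13908 TPM in Stupicke MeJA, against 1895, 4191 and 2329 TPM in Criollo MeJA (log2 fold change = 2.56 ± 0.33 SE, adjusted p = 5.4e-05). All Stupicke values lay above all Criollo values, and Criollo MeJA 2 was the highest of its group. The 2S albumin gene Solyc08g080490, a sulphur-rich storage protein, had 620.3, 963 and 1135 TPM in Stupicke MeJA, against 23.3, 30.03 and 50.1 TPM in Criollo MeJA (log2 fold change = 4.86 ± 0.60 SE, adjusted p = 3.7e-05). The 11S globulin gene Solyc09g072560 had 58.9, 89.4 and 125 TPM in Stupicke MeJA, against 5.21, 6.76 and 5.28 TPM in Criollo MeJA (log2 fold change = 4.12 ± 0.62 SE, adjusted p = 2.3e-04). Both differed by more than 10-fold with no overlap. The storage protein gene Solyc09g090150 had 32.7, 54.0 and 51.8 TPM in Stupicke MeJA, against 4.21, 5.89 and 5.30 TPM in Criollo MeJA (log2 fold change = 3.31 ± 0.60 SE, adjusted p = 1.0e-03). Among genes of the oil body, the lipid store of the seed, the oleosin gene Solyc06g034040 had 5351, 7073 and 5275 TPM in Stupicke MeJA, against 2371, 3584 and 2145 TPM in Criollo MeJA (log2 fold change = 1.28 ± 0.23 SE, adjusted p = 8.8e-04). The oil body-associated gene Solyc03g005940, named after its values were seen, had 1319, 1485 and 1355 TPM in Stupicke MeJA, against 219.8, 439 and 244 TPM in Criollo MeJA (log2 fold change = 2.32 ± 0.28 SE, adjusted p = 3.0e-05). The 5 members that were not called included the oleosin gene Solyc12g010920, with log2 fold change = 0.38 (adjusted p = 0.232). A single member was lower by DESeq2 (15 higher, 1 lower), by limma on log2(TPM + 1) and without Stupicke MeJA 3 (each 13 higher, 1 lower), and in the fit of only the 6 libraries compared (16 higher, 1 lower).

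LEA genes, whose products protect cells during drying, had more higher than lower members. Of 27 LEA and dehydrin genes tested, 10 were higher and 2 lower in Stupicke MeJA, with a median log2 fold change of 0.48. The count was 6 higher and 3 lower without Criollo MeJA 1 and 14 higher and 1 lower without Criollo MeJA 2. It was 6 higher and 1 lower without Criollo MeJA 3, and 8 higher and 1 lower without Stupicke MeJA 2 or 3. The seed maturation gene Solyc07g066400 had 131, 152 and 156 TPM in Stupicke MeJA, against 32.0, 50.02 and 33.9 TPM in Criollo MeJA (log2 fold change = 2.10 ± 0.27 SE, adjusted p = 5.1e-05). The LEA D-34 gene Solyc09g082110 had 699, 743 and 715 TPM in Stupicke MeJA, against 194, 349 and 153 TPM in Criollo MeJA (log2 fold change = 1.76 ± 0.29 SE, adjusted p = 5.0e-04). In both genes the groups did not overlap. The most abundant LEA gene among those at least 2-fold different, Solyc06g048840, had 14354, 19657 and 16753 TPM in Stupicke MeJA, against 7480.0, 10682 and 6188 TPM in Criollo MeJA (log2 fold change = 1.15 ± 0.30 SE, adjusted p = 0.0123). Solyc06g048840 was not called without Criollo MeJA 1, Criollo MeJA 3 or Stupicke MeJA 2 (adjusted p = 0.0530 to 0.0669) when each was left out in turn. The LEA hydroxyproline-rich gene Solyc10g081980 rested on 1 library, with 3.54, 3.33 and 13.3 TPM in Stupicke MeJA, against 0.169, 0.835 and 1.37 TPM in Criollo MeJA (log2 fold change = 3.14 ± 0.74 SE, adjusted p = 0.00633). Solyc10g081980 was not called without Stupicke MeJA 3 (adjusted p = 0.0527), and its log2 fold change was 2.18 without Stupicke MeJA 3. The 2 lower members were Solyc01g095150, with 62.6, 30.9 and 32.3 TPM in Stupicke MeJA, against 68.7, 98.7 and 115 TPM in Criollo MeJA (log2 fold change = -1.07 ± 0.33 SE, adjusted p = 0.0298), and Solyc08g066590, listed at 0 in every Stupicke MeJA library and at under 1 TPM in Criollo MeJA. Solyc01g095150 was not called without Criollo MeJA 2, Criollo MeJA 3, Stupicke MeJA 2 or Stupicke MeJA 3 (adjusted p = 0.0742 to 0.123) when each was left out in turn.

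**Figure D2:**
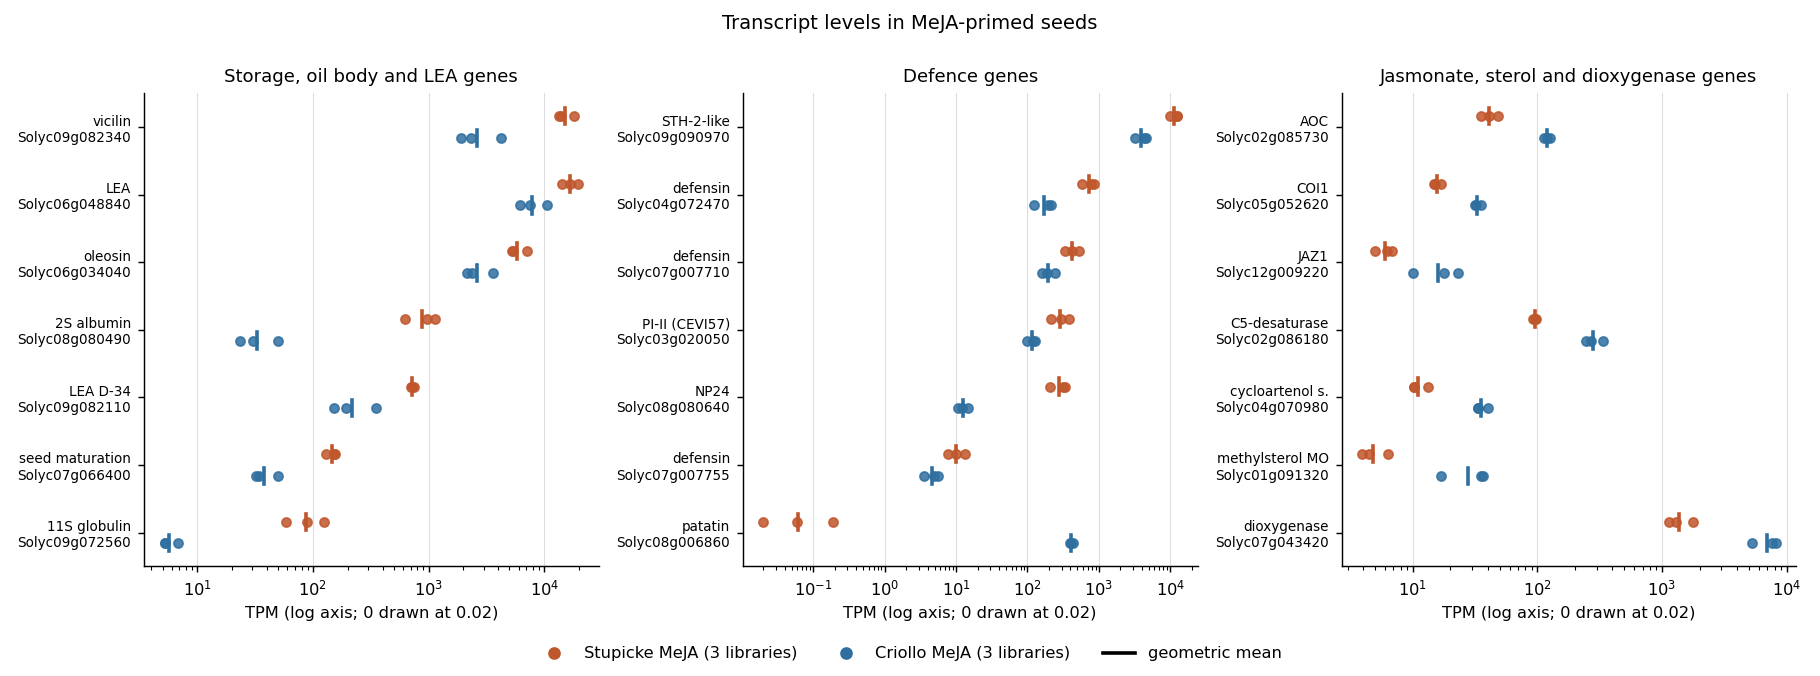
TPM (log axis) of 21 genes in the 3 Stupicke MeJA libraries (orange, upper row of each gene) and the 3 Criollo MeJA libraries (blue, lower row); points are libraries, bars are geometric means, and a value of 0 is drawn at 0.02. The storage, LEA and most of the defence genes shown lay higher in Stupicke MeJA, while patatin and the jasmonate, sterol and dioxygenase genes shown lay lower. All genes shown were called in the main test. Uncalled members of these lists and the squalene synthase gene, which was higher, are not shown.

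Defensins, small cysteine-rich antimicrobial peptides, were higher in Stupicke MeJA in 3 of 5 genes tested, with none lower and a median log2 fold change of 1.30. Solyc04g072470 had 572, 848 and 778 TPM in Stupicke MeJA, against 124, 211 and 191 TPM in Criollo MeJA (log2 fold change = 2.22 ± 0.30 SE, adjusted p = 8.8e-05). Solyc07g007710 had 336, 533 and 419 TPM in Stupicke MeJA, against 158, 239.5 and 190.3 TPM in Criollo MeJA (log2 fold change = 1.33 ± 0.41 SE, adjusted p = 0.0279). Solyc07g007755 had 7.60, 9.91 and 13.3 TPM in Stupicke MeJA, against 5.67, 3.51 and 4.85 TPM in Criollo MeJA (log2 fold change = 1.30 ± 0.39 SE, adjusted p = 0.0258). None of these genes had overlapping groups, but only the call of Solyc04g072470 held without each library in turn. Solyc07g007710 was not called without Criollo MeJA 1, Criollo MeJA 3, Stupicke MeJA 2 or Stupicke MeJA 3 (adjusted p = 0.0641 to 0.114) when each was left out in turn. Solyc07g007755 was not called without Criollo MeJA 1, Criollo MeJA 2, Criollo MeJA 3, Stupicke MeJA 2 or Stupicke MeJA 3 (adjusted p = 0.0526 to 0.115) when each was left out in turn, nor by limma on log2(TPM + 0.1) (adjusted p = 0.0683). The neighbouring Solyc07g007750 had 4.34, 7.30 and 4.59 TPM in Stupicke MeJA, against 4.40, 4.71 and 4.46 TPM in Criollo MeJA, which was not called (log2 fold change = 0.37 ± 0.37 SE, adjusted p = 0.527), and Solyc07g006380 lay under 0.4 TPM in all libraries. The chromosome 7 defensins are neighbours in number, and how reads were divided among similar copies was not tested.

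Proteinase inhibitors, which block the digestive enzymes of insects and the proteases of microbes, went both ways. Of 9 genes tested 5 were higher and 2 lower in Stupicke MeJA, with a median log2 fold change of 0.78. The viroid-inducible type II inhibitor gene Solyc03g020050 had 213, 376 and 294 TPM in Stupicke MeJA, against 118, 99.5 and 126 TPM in Criollo MeJA (log2 fold change = 1.49 ± 0.25 SE, adjusted p = 9.1e-04). The type II gene Solyc03g020060 had 3.45, 7.21 and 8.65 TPM in Stupicke MeJA, against 0.992, 0.831 and 2.29 TPM in Criollo MeJA (log2 fold change = 2.36 ± 0.49 SE, adjusted p = 0.00738). In mock seeds both were at or close to 0, with 0, 0 and 0.116 TPM in Stupicke mock, against 0.127, 0.252 and 0 TPM in Criollo mock for the viroid-inducible gene and 0 TPM in each Stupicke and Criollo mock library for Solyc03g020060, so no mock difference could be read. The ethylene-responsive inhibitor gene Solyc08g080630 had 2.66, 5.53 and 3.56 TPM in Stupicke MeJA, against 1.17, 1.46 and 0.888 TPM in Criollo MeJA (log2 fold change = 1.85 ± 0.35 SE, adjusted p = 0.00142). Cystatin 9 (Solyc03g097270), a cysteine protease inhibitor, had 287, 352 and 334 TPM in Stupicke MeJA, against 207, 226 and 228 TPM in Criollo MeJA (log2 fold change = 0.68 ± 0.17 SE, adjusted p = 0.00852). For these genes the groups did not overlap. The metallocarboxypeptidase inhibitor gene Solyc07g007250 had 7.62, 37.3 and 19.7 TPM in Stupicke MeJA, against 6.44, 8.70 and 2.86 TPM in Criollo MeJA, with overlapping groups (log2 fold change = 2.02 ± 0.65 SE, adjusted p = 0.04996). Solyc07g007250 was not called without Criollo MeJA 1, Criollo MeJA 2, Criollo MeJA 3, Stupicke MeJA 2 or Stupicke MeJA 3 (adjusted p = 0.0542 to 0.216) when each was left out in turn, nor by RLE size factors (adjusted p = 0.0502), and its log2 fold change was 1.31 without Stupicke MeJA 2. Another type II gene, Solyc03g098795, was lower, with 19.7, 41.5 and 32.0 TPM in Stupicke MeJA, against 72.1, 65.6 and 82.2 TPM in Criollo MeJA (log2 fold change = -1.09 ± 0.25 SE, adjusted p = 0.00595). Solyc03g098795 was not called by limma on log2(TPM + 0.1) (adjusted p = 0.105). The other lower gene was Solyc03g122270, annotated as like an inter-alpha-trypsin inhibitor heavy chain (log2 fold change = -1.52 ± 0.42 SE, adjusted p = 0.0164). Solyc03g122270 was not called without Criollo MeJA 1, Criollo MeJA 3, Stupicke MeJA 1 or Stupicke MeJA 3 (adjusted p = 0.0542 to 0.0778) when each was left out in turn.

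Pathogenesis-related (PR) proteins, a collective name for proteins that accumulate after infection, were likewise mixed, with 7 of 19 genes higher, 5 lower and a median log2 fold change of 0.27. Fewer were called without Criollo MeJA 2 (4 higher, 4 lower), Criollo MeJA 3 (6 higher, 3 lower), Stupicke MeJA 2 or Stupicke MeJA 3 (each 5 higher, 3 lower). The STH-2-like gene Solyc09g090970, among the most abundant transcripts that differed, had 9860.4, 12291 and 12389.5 TPM in Stupicke MeJA, against 3175, 4239 and 4594 TPM in Criollo MeJA (log2 fold change = 1.64 ± 0.24 SE, adjusted p = 2.0e-04). The chitinase/lysozyme gene Solyc07g005100, whose product degrades fungal chitin, had 33.8, 48.7 and 47.6 TPM in Stupicke MeJA, against 11.9, 9.61 and 17.0 TPM in Criollo MeJA (log2 fold change = 1.88 ± 0.36 SE, adjusted p = 0.00145). The chitinase gene Solyc10g055800, named after its values were seen, had 153, 246 and 391 TPM in Stupicke MeJA, against 78.9, 90.3 and 98.3 TPM in Criollo MeJA (log2 fold change = 1.69 ± 0.33 SE, adjusted p = 0.00182). These genes had higher values in every Stupicke library, and the last was not called in mock seeds, with a log2 fold change of -0.23 (adjusted p = 0.624). The acidic extracellular chitinase genes Solyc02g082920 and Solyc02g082930 are neighbours that varied widely within Criollo. Solyc02g082920 had 96.8, 177 and 143 TPM in Stupicke MeJA, against 4.71, 26.5 and 85.4 TPM in Criollo MeJA (log2 fold change = 1.98 ± 0.68 SE, adjusted p = 0.0484). Solyc02g082930 had 5.43, 7.14 and 5.47 TPM in Stupicke MeJA, against 0.0977, 0.592 and 2.37 TPM in Criollo MeJA (log2 fold change = 2.68 ± 0.71 SE, adjusted p = 0.0131). Solyc02g082920 was not called without Criollo MeJA 1, Criollo MeJA 2, Stupicke MeJA 2 or Stupicke MeJA 3 (adjusted p = 0.0999 to 0.141) when each was left out in turn, nor by the fit with a replicate block (adjusted p = 0.0509) or the fit of only the 6 libraries compared (adjusted p = 0.0903), and its log2 fold change was 3.25 without Criollo MeJA 3. Solyc02g082930 was not called without Criollo MeJA 2 (adjusted p = 0.0501), and its log2 fold change was 4.22 without Criollo MeJA 3. Among the lower genes, the thaumatin family gene Solyc08g080660 had 90.5, 133 and 136 TPM in Stupicke MeJA, against 376, 252 and 463 TPM in Criollo MeJA (log2 fold change = -1.46 ± 0.34 SE, adjusted p = 0.00611). The PR family gene Solyc12g014310 had 11.4, 14.4 and 12.4 TPM in Stupicke MeJA, against 28.8, 27.1 and 30.3 TPM in Criollo MeJA (log2 fold change = -1.05 ± 0.24 SE, adjusted p = 0.00539). The remaining lower genes had log2 fold changes between -0.65 and -0.90. Outside the list, the NP24 precursor gene Solyc08g080640, a thaumatin-like protein, was among the annotated genes with the largest positive fold changes. It had 205, 331 and 319 TPM in Stupicke MeJA, against 12.03, 10.7 and 14.8 TPM in Criollo MeJA (log2 fold change = 4.66 ± 0.25 SE, adjusted p = 4.2e-09), and it lies beside the lower thaumatin gene Solyc08g080660 in number.

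Lipid-transfer proteins, small secreted proteins that bind lipids, were higher in 2 of 5 genes tested by edgeR, with none lower and a median log2 fold change of 0.36. DESeq2 and limma on log2(TPM + 1) each called 2 higher and 1 lower, and the fit of only the 6 libraries compared 3 higher and 1 lower. Solyc01g090360 had 4561, 4926 and 5259 TPM in Stupicke MeJA, against 1867, 2803 and 2141 TPM in Criollo MeJA (log2 fold change = 1.26 ± 0.30 SE, adjusted p = 0.00648). Its neighbour Solyc01g090350, at still higher TPM, had 19118, 22125 and 21993 TPM in Stupicke MeJA, against 12319, 13791 and 14163 TPM in Criollo MeJA (log2 fold change = 0.81 ± 0.25 SE, adjusted p = 0.0310). Solyc01g090350 was not called without Criollo MeJA 1, Criollo MeJA 3, Stupicke MeJA 2 or Stupicke MeJA 3 (adjusted p = 0.0781 to 0.118) when each was left out in turn. Of 4 peroxidase genes tested 2 were higher. The abundant Solyc04g071890 had 975.3, 1380.0 and 1243 TPM in Stupicke MeJA, against 777, 841 and 765 TPM in Criollo MeJA (log2 fold change = 0.73 ± 0.19 SE, adjusted p = 0.0135). Solyc04g071890 was not called without Criollo MeJA 1, Criollo MeJA 3 or Stupicke MeJA 2 (adjusted p = 0.0544 to 0.0760) when each was left out in turn. The other, Solyc01g007950, lay under 1 TPM in all libraries (log2 fold change = 1.12 ± 0.35 SE, adjusted p = 0.0307). Solyc01g007950 was not called without Criollo MeJA 1, Criollo MeJA 3, Stupicke MeJA 2 or Stupicke MeJA 3 (adjusted p = 0.0757 to 0.122) when each was left out in turn. Of 7 anti-herbivore enzymes, which spoil the nutritive value of tissue for insects, the polyphenol oxidase gene Solyc08g074620 was called by edgeR, with 1.17, 1.95 and 1.16 TPM in Stupicke MeJA, against 5.69, 5.47 and 3.14 TPM in Criollo MeJA (log2 fold change = -1.62 ± 0.39 SE, adjusted p = 0.00765). This list depended on single libraries. There were 3 lower and a median log2 fold change of -2.49 without Stupicke MeJA 2. There were 1 higher, 1 lower and a median of 0.52 without Criollo MeJA 2. The median was -0.08 with all libraries. Limma on log2(TPM + 0.1) called 2 lower. The wound-induced leucine aminopeptidase A gene Solyc12g010040 had 221, 219.7 and 226 TPM in Stupicke MeJA, against 259, 251 and 252 TPM in Criollo MeJA, a difference that did not pass (log2 fold change = -0.08 ± 0.08 SE, adjusted p = 0.544).

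Genes of jasmonate synthesis and perception were lower or were not called. All 5 genes of jasmonate synthesis and perception had negative fold changes, of which 3 passed, with a median log2 fold change of -0.98. The allene oxide synthase gene Solyc04g079730, which acts at the entry of the branch, had 2.26, 3.38 and 3.23 TPM in Stupicke MeJA, against 7.52, 7.66 and 11.04 TPM in Criollo MeJA (log2 fold change = -1.44 ± 0.27 SE, adjusted p = 0.00132). The allene oxide cyclase gene Solyc02g085730, the next enzyme, had 40.9, 48.1 and 35.3 TPM in Stupicke MeJA, against 114, 126 and 119 TPM in Criollo MeJA (log2 fold change = -1.41 ± 0.18 SE, adjusted p = 6.0e-05). The receptor gene COI1 (Solyc05g052620) had 16.9, 14.9 and 15.1 TPM in Stupicke MeJA, against 35.6, 32.0 and 31.7 TPM in Criollo MeJA (log2 fold change = -0.98 ± 0.11 SE, adjusted p = 1.8e-05). In each of these genes every Stupicke library lay below every Criollo library. The 12-oxophytodienoate reductase 3 gene Solyc07g007870 (log2 fold change = -0.53 ± 0.19 SE, adjusted p = 0.0551) and the lipoxygenase D gene Solyc03g122340 (log2 fold change = -0.25 ± 0.19 SE, adjusted p = 0.378) did not pass. In mock seeds the allene oxide cyclase and COI1 genes were also lower, at -1.61 (adjusted p = 1.0e-05) and -0.63 (adjusted p = 3.2e-04), whereas the allene oxide synthase gene had a log2 fold change of 0.83 (adjusted p = 0.0701). The difference between these 2 differences for allene oxide synthase was -2.27 ± 0.44 SE, adjusted p = 0.123.

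Among the regulators, 1 of 8 JAZ and TIFY repressor genes differed, with a median log2 fold change of -0.19. JAZ1 (Solyc12g009220) had 5.01, 6.77 and 6.19 TPM in Stupicke MeJA, against 9.99, 23.2 and 17.8 TPM in Criollo MeJA (log2 fold change = -1.38 ± 0.32 SE, adjusted p = 0.00605). Solyc12g009220 was not called by limma on log2(TPM + 0.1) (adjusted p = 0.0553). The most abundant member, JAZ3 (Solyc07g042170), had 228, 229 and 214 TPM in Stupicke MeJA, against 310.5, 333 and 319 TPM in Criollo MeJA (log2 fold change = -0.41 ± 0.23 SE, adjusted p = 0.227), so its groups did not overlap but the test did not pass. The remaining JAZ and TIFY genes were not called, with log2 fold changes from -0.41 to 1.38. Both genes whose annotation text names MYC2 were called lower. Whether either is the MYC2 activator that JAZ proteins hold back was not tested. Solyc08g005050 had 5.73, 3.93 and 3.998 TPM in Stupicke MeJA, against 10.1, 11.3 and 7.52 TPM in Criollo MeJA (log2 fold change = -0.97 ± 0.22 SE, adjusted p = 0.00446). Solyc01g096370 had 1.13, 2.98 and 1.52 TPM in Stupicke MeJA, against 4.05, 4.84 and 4.205 TPM in Criollo MeJA (log2 fold change = -1.08 ± 0.33 SE, adjusted p = 0.0258). Solyc01g096370 was not called without Criollo MeJA 1, Criollo MeJA 2, Criollo MeJA 3, Stupicke MeJA 1 or Stupicke MeJA 3 (adjusted p = 0.0503 to 0.108) when each was left out in turn. The other 5 genes of the bHLH class were not called, including the bHLH13 genes Solyc01g096050 (log2 fold change = -0.16 ± 0.15 SE, adjusted p = 0.473) and Solyc05g050560 (log2 fold change = 0.34 ± 0.14 SE, adjusted p = 0.104).

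Genes of sterol synthesis, which supply membrane sterols and the precursors of steroidal compounds, were lower in 10 of 12 members and higher in 1, with a median log2 fold change of -0.60. This list was drawn up after the values were seen, so its count is a description. In pathway order, the mevalonate kinase gene Solyc01g098840, of the isoprenoid supply, had 12.5, 11.4 and 11.8 TPM in Stupicke MeJA, against 21.3, 20.2 and 22.2 TPM in Criollo MeJA (log2 fold change = -0.73 ± 0.11 SE, adjusted p = 1.9e-04). The squalene synthase gene Solyc01g110290 was the exception, with 53.2, 62.4 and 59.2 TPM in Stupicke MeJA, against 34.9, 33.9 and 40.4 TPM in Criollo MeJA (log2 fold change = 0.80 ± 0.11 SE, adjusted p = 1.2e-04). Of 2 squalene epoxidase genes, Solyc04g077440 was lower (log2 fold change = -0.34 ± 0.11 SE, adjusted p = 0.0415) and Solyc02g063523 was not called (log2 fold change = 0.62 ± 0.52 SE, adjusted p = 0.435). Solyc04g077440 was not called without Criollo MeJA 1, Criollo MeJA 2, Criollo MeJA 3, Stupicke MeJA 1, Stupicke MeJA 2 or Stupicke MeJA 3 (adjusted p = 0.0687 to 0.124) when each was left out in turn, nor by the fit with no filter on low counts (adjusted p = 0.0613). The cycloartenol synthase gene Solyc04g070980, which closes the sterol ring system, had 13.1, 10.2 and 10.2 TPM in Stupicke MeJA, against 40.3, 33.2 and 33.4 TPM in Criollo MeJA (log2 fold change = -1.56 ± 0.15 SE, adjusted p = 2.7e-06). The groups did not overlap for any of the members given by library here, and only squalene synthase lay higher in Stupicke.

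Enzymes that trim and desaturate the sterol ring followed. The methylsterol monooxygenase gene Solyc01g091320 had 3.93, 6.39 and 4.44 TPM in Stupicke MeJA, against 36.9, 16.8 and 35.2 TPM in Criollo MeJA (log2 fold change = -2.46 ± 0.36 SE, adjusted p = 2.0e-04). A second methylsterol monooxygenase gene, Solyc06g005750, had 25.8, 28.8 and 25.8 TPM in Stupicke MeJA, against 93.9, 59.2 and 90.1 TPM in Criollo MeJA (log2 fold change = -1.45 ± 0.26 SE, adjusted p = 0.00105). The sterol C5(6)-desaturase gene Solyc02g086180 had 92.2, 95.2 and 98.3 TPM in Stupicke MeJA, against 337, 244 and 269.9 TPM in Criollo MeJA (log2 fold change = -1.45 ± 0.20 SE, adjusted p = 1.0e-04). All Stupicke values of these genes lay below all Criollo values, and the Criollo MeJA 2 library was the lowest of its group in each. The sterol reductase gene Solyc09g009040 (log2 fold change = -0.47 ± 0.11 SE, adjusted p = 0.00662), the 7-dehydrocholesterol reductase gene Solyc06g074090 (log2 fold change = -0.45 ± 0.11 SE, adjusted p = 0.00941), the hydroxysteroid dehydrogenase gene Solyc02g032330 (log2 fold change = -0.47 ± 0.12 SE, adjusted p = 0.00881) and the sterol 22-desaturase gene Solyc02g070580 (log2 fold change = -0.72 ± 0.17 SE, adjusted p = 0.00733) were lower by smaller amounts. Solyc06g074090 was not called without Criollo MeJA 3 (adjusted p = 0.0579). Solyc02g032330 was not called without Stupicke MeJA 3 (adjusted p = 0.0536), nor by limma on log2(TPM + 0.1) (adjusted p = 0.0633) or limma on log2(TPM + 1) (adjusted p = 0.0600). In mock seeds 8 of the 12 genes were lower and none was higher, and the methylsterol monooxygenase gene Solyc01g091320 had a log2 fold change of 0.16 (adjusted p = 0.788).

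A run of 5 neighbouring genes on chromosome 7, from Solyc07g043420 to Solyc07g043500, was lower throughout. The dioxygenase gene Solyc07g043420, which ranked among the most abundant lower genes, had 1129, 1766 and 1288 TPM in Stupicke MeJA, against 7686, 5245 and 8171 TPM in Criollo MeJA (log2 fold change = -2.21 ± 0.19 SE, adjusted p = 1.1e-06). The P450 gene Solyc07g043460 had 40.2, 54.7 and 48.5 TPM in Stupicke MeJA, against 114, 69.3 and 138 TPM in Criollo MeJA (log2 fold change = -1.04 ± 0.19 SE, adjusted p = 0.00119). The glycosyltransferase gene Solyc07g043480 had 79.8, 108 and 100.6 TPM in Stupicke MeJA, against 187, 116 and 194 TPM in Criollo MeJA (log2 fold change = -0.65 ± 0.16 SE, adjusted p = 0.00938). In all of these genes Criollo MeJA 2 was the lowest Criollo library, yet the groups did not overlap. Solyc07g043490 (log2 fold change = -1.23 ± 0.36 SE, adjusted p = 0.0202) and Solyc07g043500 (log2 fold change = -0.91 ± 0.31 SE, adjusted p = 0.0436) were called with less margin. Solyc07g043480 was not called without Criollo MeJA 3 (adjusted p = 0.0547). Solyc07g043490 was not called without Criollo MeJA 1, Criollo MeJA 3, Stupicke MeJA 1 or Stupicke MeJA 3 (adjusted p = 0.0562 to 0.121) when each was left out in turn. Solyc07g043500 was not called without Criollo MeJA 1, Criollo MeJA 3, Stupicke MeJA 1 or Stupicke MeJA 3 (adjusted p = 0.120 to 0.213) when each was left out in turn, nor by limma on log2(TPM + 0.1) (adjusted p = 0.0598), limma on log2(TPM + 1) (adjusted p = 0.0540) or the fit of only the 6 libraries compared (adjusted p = 0.0854). Close by in number, the cellulose synthase family gene Solyc07g043390 had 16.4, 23.2 and 12.8 TPM in Stupicke MeJA, against 223, 109 and 238 TPM in Criollo MeJA (log2 fold change = -3.32 ± 0.36 SE, adjusted p = 1.2e-05).

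Genes of abscisic acid (ABA), the hormone of seed maturation and dormancy, were higher in 3 of 8 members and lower in 1, with a median log2 fold change of 0.51. The count was 5 higher and 1 lower without Criollo MeJA 2, and 2 higher and none lower without Criollo MeJA 3 or Stupicke MeJA 3. The 9-cis-epoxycarotenoid dioxygenase gene Solyc05g053530, for the rate-limiting step of ABA synthesis, had 22.2, 25.7 and 25.6 TPM in Stupicke MeJA, against 6.37, 11.97 and 5.61 TPM in Criollo MeJA (log2 fold change = 1.73 ± 0.36 SE, adjusted p = 0.00278). A second gene of this step, Solyc08g016720, had 4.62, 5.69 and 7.27 TPM in Stupicke MeJA, against 2.28, 4.796 and 3.29 TPM in Criollo MeJA (log2 fold change = 0.87 ± 0.28 SE, adjusted p = 0.0361). Solyc08g016720 was not called without Criollo MeJA 1, Criollo MeJA 3, Stupicke MeJA 2 or Stupicke MeJA 3 (adjusted p = 0.0884 to 0.159) when each was left out in turn, nor by limma on log2(TPM + 0.1) (adjusted p = 0.0879), limma on log2(TPM + 1) (adjusted p = 0.0782) or the fit of only the 6 libraries compared (adjusted p = 0.0607). The ABA receptor gene PYL8 (Solyc08g082180) had 81.6, 84.4 and 87.2 TPM in Stupicke MeJA, against 48.2, 54.0 and 46.5 TPM in Criollo MeJA (log2 fold change = 0.89 ± 0.17 SE, adjusted p = 0.00127), whereas the receptor gene PYL3 (Solyc08g065410) was lower, with 30.8, 36.6 and 28.6 TPM in Stupicke MeJA, against 93.8, 49.5 and 142 TPM in Criollo MeJA (log2 fold change = -1.41 ± 0.39 SE, adjusted p = 0.0162). Solyc08g065410 was not called without Criollo MeJA 3, Stupicke MeJA 1 or Stupicke MeJA 3 (adjusted p = 0.0517 to 0.105) when each was left out in turn. The 2 receptor genes thus differed in opposite directions. In mock seeds the difference in Solyc05g053530 was 5.09 (adjusted p = 8.7e-07) on the log2 scale, and the difference between the 2 differences was -3.36 ± 0.56 SE, adjusted p = 0.0520.

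Of 4 gibberellin genes, which serve the hormone of germination, 2 were higher and none lower. The gibberellin receptor gene Solyc06g008870 had 55.5, 75.5 and 64.8 TPM in Stupicke MeJA, against 28.5, 35.1 and 30.7 TPM in Criollo MeJA (log2 fold change = 1.17 ± 0.16 SE, adjusted p = 1.1e-04). The gibberellin 20-oxidase-3 gene Solyc11g072310, a synthesis enzyme, had 3.11, 3.25 and 4.54 TPM in Stupicke MeJA, against 1.202, 1.01 and 1.11 TPM in Criollo MeJA (log2 fold change = 1.83 ± 0.35 SE, adjusted p = 0.00167). Both had every Stupicke library above every Criollo library. Of 20 ethylene genes tested, 7 were higher and 1 lower, with a median log2 fold change of 0.21. The ethylene-responsive factor gene Solyc03g117130 had 196, 220.3 and 215 TPM in Stupicke MeJA, against 20.9, 45.3 and 31.6 TPM in Criollo MeJA (log2 fold change = 2.82 ± 0.30 SE, adjusted p = 9.0e-06). A neighbour in number, Solyc03g117230, had 47.0, 73.9 and 62.1 TPM in Stupicke MeJA, against 27.8, 19.9 and 22.2 TPM in Criollo MeJA (log2 fold change = 1.54 ± 0.24 SE, adjusted p = 2.8e-04). Another factor gene, Solyc04g050750, had 48.2, 57.7 and 61.5 TPM in Stupicke MeJA, against 14.9, 35.3 and 20.7 TPM in Criollo MeJA (log2 fold change = 1.37 ± 0.39 SE, adjusted p = 0.0181). These factors were all higher in Stupicke. Solyc04g050750 was not called without Criollo MeJA 1, Criollo MeJA 3, Stupicke MeJA 2 or Stupicke MeJA 3 (adjusted p = 0.0563 to 0.0893) when each was left out in turn. The lower gene, Solyc01g090300, had 1 count in Stupicke MeJA and 35 counts in Criollo MeJA in all, a Criollo over Stupicke ratio of 32.4 (95% counting interval 5.81 to 1279). Solyc01g090300 was not called without Criollo MeJA 3 or Stupicke MeJA 3 (adjusted p = 0.0505 to 0.0566) when each was left out in turn, and its log2 fold change was -6.53 without Stupicke MeJA 2. The ethylene receptor gene ETR4 (Solyc06g053710; log2 fold change = -0.38 ± 0.22 SE, adjusted p = 0.234) and the EIN3-binding F-box gene Solyc12g009560 (log2 fold change = -0.01 ± 0.17 SE, adjusted p = 0.976) were not called.

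Few genes of other transcription factor families were called, and the lists are short. Higher were 15.4% of WRKY and 10% of MYB genes, against 19.4% of annotated genes. Lower were 0% of WRKY and 10% of MYB genes, against 15.8% of annotated genes. Of 13 WRKY genes 2 were higher and none lower, Solyc05g012770 (log2 fold change = 0.67 ± 0.15 SE, adjusted p = 0.00482) and Solyc02g032950 (log2 fold change = 0.87 ± 0.27 SE, adjusted p = 0.0273). Solyc05g012770 was not called by limma on log2(TPM + 0.1) (adjusted p = 0.108) or limma on log2(TPM + 1) (adjusted p = 0.0847). Solyc02g032950 was not called without Criollo MeJA 1, Criollo MeJA 3, Stupicke MeJA 2 or Stupicke MeJA 3 (adjusted p = 0.0720 to 0.124) when each was left out in turn, nor by limma on log2(TPM + 0.1) (adjusted p = 0.0829) or limma on log2(TPM + 1) (adjusted p = 0.0742). The WRKY genes Solyc01g079360 (log2 fold change = 0.05 ± 0.26 SE, adjusted p = 0.922) and Solyc03g116890 (log2 fold change = -0.94 ± 0.45 SE, adjusted p = 0.144) were not called. Of 10 MYB genes, Solyc05g009720 was higher (log2 fold change = 1.82 ± 0.28 SE, adjusted p = 2.8e-04) and Solyc08g065380 lower (log2 fold change = -1.66 ± 0.43 SE, adjusted p = 0.0112). Solyc08g065380 was not called without Stupicke MeJA 2 or Stupicke MeJA 3 (adjusted p = 0.0534 to 0.0545) when each was left out in turn. The NF-YA gene Solyc10g079150 (log2 fold change = 0.39 ± 0.27 SE, adjusted p = 0.324) and the FAR1-related gene Solyc09g075640 (log2 fold change = 0.10 ± 0.12 SE, adjusted p = 0.616) did not pass. Of the 2 light receptor genes, phototropin 2 (Solyc01g097770) was lower (log2 fold change = -1.07 ± 0.23 SE, adjusted p = 0.00297) and cryptochrome 2 (Solyc09g090100) higher (log2 fold change = 0.44 ± 0.12 SE, adjusted p = 0.0128). Solyc09g090100 was not called without Criollo MeJA 2 or Stupicke MeJA 2 (adjusted p = 0.0564 to 0.0681) when each was left out in turn, nor by limma on log2(TPM + 0.1) (adjusted p = 0.302) or limma on log2(TPM + 1) (adjusted p = 0.285).

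Receptor-like proteins, which sense signals at the cell surface, had 8 of 35 genes lower, 3 higher and a median log2 fold change of -0.14. These shares were 22.9% lower and 8.57% higher, against 15.8% lower and 19.4% higher among annotated genes. None was called higher by either limma fit or without Criollo MeJA 1, Criollo MeJA 2, Criollo MeJA 3, Stupicke MeJA 2 or Stupicke MeJA 3. The kinase genes Solyc08g066310 (log2 fold change = -2.86 ± 0.46 SE, adjusted p = 4.0e-04) and Solyc08g066320 (log2 fold change = -2.59 ± 0.47 SE, adjusted p = 0.00102), neighbours on chromosome 8, were the lowest, both under 2 TPM in all libraries. Solyc08g066310 kept its call but had a log2 fold change of -3.55 without Stupicke MeJA 1. None of the 3 higher members kept its call in every leave-one-out fit. Of 4 resistance genes, Solyc04g005860, the gene ENHANCED DISEASE RESISTANCE 2, was higher (log2 fold change = 0.52 ± 0.14 SE, adjusted p = 0.0155). Solyc04g005860 was not called without Criollo MeJA 1, Criollo MeJA 3 or Stupicke MeJA 3 (adjusted p = 0.0517 to 0.0804) when each was left out in turn, nor by limma on log2(TPM + 0.1) (adjusted p = 0.195) or limma on log2(TPM + 1) (adjusted p = 0.171). Of 10 phenylpropanoid and flavonoid genes, which make lignin and flavonoids, the 4-coumarate-CoA ligase-like gene Solyc12g094520 was called by edgeR, with 18.3, 22.02 and 21.96 TPM in Stupicke MeJA, against 37.8, 33.5 and 47.9 TPM in Criollo MeJA (log2 fold change = -0.83 ± 0.15 SE, adjusted p = 9.7e-04). Limma on log2(TPM + 1) called 3 lower, the fit of only the 6 libraries compared 1 higher and 2 lower, and the fits without Stupicke MeJA 1 or 2 each 2 lower. The 3 phenylalanine ammonia-lyase genes, for the entry enzyme, were not called, with log2 fold changes from -0.03 to 0.39. EdgeR called none of 4 terpene synthase genes (2 higher at an unadjusted p under 0.05), 3 snakin and GASA genes (1 lower at an unadjusted p under 0.05), 4 tested photosynthesis genes (1 lower at an unadjusted p under 0.05) and the 1 fruit marker measured (0 at an unadjusted p under 0.05). DESeq2 called 1 snakin or GASA gene lower. Limma on log2(TPM + 1) called 1 snakin or GASA gene and 1 photosynthesis gene lower. The fit of only the 6 libraries compared called 2 terpene synthase genes higher and 1 snakin or GASA gene and 1 photosynthesis gene lower. A photosynthesis gene was called higher without Stupicke MeJA 1. Of 7 histone genes 1 was higher, the histone H1 gene Solyc09g066100 (log2 fold change = 0.66 ± 0.19 SE, adjusted p = 0.0188). Solyc09g066100 was not called without Criollo MeJA 1, Criollo MeJA 3 or Stupicke MeJA 2 (adjusted p = 0.0550 to 0.1004) when each was left out in turn.

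Cell wall genes were higher in 4 of 16 and lower in 1, with a median log2 fold change of 0.01. Without Stupicke MeJA 1 there were 5 higher and 3 lower, and without Stupicke MeJA 3 there were 4 higher and 2 lower. The median was -0.27 by limma on log2(TPM + 0.1). The endoglucanase gene Solyc12g055970, whose product cuts glucan chains, had 13.04, 15.9 and 18.2 TPM in Stupicke MeJA, against 2.46, 3.16 and 2.54 TPM in Criollo MeJA (log2 fold change = 2.65 ± 0.24 SE, adjusted p = 2.0e-06). Its neighbour Solyc12g055980 had 33.6, 33.8 and 35.6 TPM in Stupicke MeJA, against 6.90, 6.42 and 5.0 TPM in Criollo MeJA (log2 fold change = 2.65 ± 0.50 SE, adjusted p = 0.00147). The endo-beta-mannanase gene Solyc11g012190, of the enzyme class that softens the tomato endosperm, had 9.12, 9.96 and 9.22 TPM in Stupicke MeJA, against 6.23, 6.42 and 6.38 TPM in Criollo MeJA (log2 fold change = 0.68 ± 0.15 SE, adjusted p = 0.00487). These genes lay above Criollo in every Stupicke library. The pectinesterase gene Solyc02g080220 was lower, with 2.31, 2.07 and 2.32 TPM in Stupicke MeJA, against 14.9, 8.49 and 15.98 TPM in Criollo MeJA (log2 fold change = -2.43 ± 0.24 SE, adjusted p = 5.7e-06). Of 126 ribosomal protein genes, 121 had negative fold changes, with a median log2 fold change of -0.33, but 15 were called lower and none higher, a share of 11.9% lower against 15.8% of annotated genes. This count moved with the fit, from 3 lower without Stupicke MeJA 3, 4 without Stupicke MeJA 2, 6 without Criollo MeJA 3 and 9 without Criollo MeJA 1 to 78 by limma on log2(TPM + 1) and 92 when only the 6 libraries compared were fitted. The summed level of the list was 56857 to 62461 TPM in Stupicke MeJA and 75662 to 82150 TPM in Criollo MeJA, without overlap.

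Several heat shock and glutathione S-transferase genes had values in Stupicke MeJA 3 far above those of the other libraries. Of 20 heat shock genes, whose products keep other proteins folded, 7 were higher and 2 lower, but 3 were higher and 2 lower without that library. The same count was left without Criollo MeJA 1, without Criollo MeJA 3 and by both limma fits. The count alone therefore cannot tell how far it rested on Stupicke MeJA 3. The mitochondrial small heat shock gene Solyc08g078700 had 23.3, 11.8 and 234 TPM in Stupicke MeJA, against 16.8, 19.4 and 13.5 TPM in Criollo MeJA (log2 fold change = 2.54 ± 0.78 SE, adjusted p = 0.0281). Solyc08g078700 was not called without Criollo MeJA 1, Criollo MeJA 2, Criollo MeJA 3 or Stupicke MeJA 3 (adjusted p = 0.0559 to 0.845) when each was left out in turn, nor by the fit with a replicate block (adjusted p = 0.0742), limma on log2(TPM + 0.1) (adjusted p = 0.276), limma on log2(TPM + 1) (adjusted p = 0.264) or the fit of only the 6 libraries compared (adjusted p = 0.0917), and its log2 fold change was 0.17 without Stupicke MeJA 3. The class II small heat shock gene Solyc08g062340 had 6.58, 4.08 and 68.0 TPM in Stupicke MeJA, against 7.26, 4.25 and 5.83 TPM in Criollo MeJA (log2 fold change = 2.30 ± 0.74 SE, adjusted p = 0.0359). Solyc08g062340 was not called without Criollo MeJA 1, Criollo MeJA 2, Criollo MeJA 3 or Stupicke MeJA 3 (adjusted p = 0.0826 to 1.00) when each was left out in turn, nor by the fit with a replicate block (adjusted p = 0.0806), limma on log2(TPM + 0.1) (adjusted p = 0.324), limma on log2(TPM + 1) (adjusted p = 0.299) or the fit of only the 6 libraries compared (adjusted p = 0.115), and its log2 fold change was -0.01 without Stupicke MeJA 3. In both genes Stupicke MeJA 1 and 2 lay within or near the Criollo range. A pair of class I genes kept their calls without that library. The class I gene Solyc04g072250 had 611, 809.8 and 734 TPM in Stupicke MeJA, against 68.6, 165 and 98.3 TPM in Criollo MeJA (log2 fold change = 2.80 ± 0.39 SE, adjusted p = 1.1e-04). The class I gene Solyc06g076520 had 106, 118 and 128 TPM in Stupicke MeJA, against 12.04, 37.3 and 1.99 TPM in Criollo MeJA (log2 fold change = 2.88 ± 0.60 SE, adjusted p = 0.00275). Solyc06g076520 kept its call but had a log2 fold change of 4.32 without Criollo MeJA 2. Lower were the class I gene Solyc06g076540, with 23.1, 29.8 and 34.1 TPM in Stupicke MeJA, against 100.8, 102 and 145 TPM in Criollo MeJA (log2 fold change = -1.84 ± 0.26 SE, adjusted p = 1.4e-04), and the heat shock protein 70 family gene Solyc12g043120 (log2 fold change = -0.77 ± 0.11 SE, adjusted p = 1.2e-04). The class I genes on chromosome 6 lie close together in number, and how reads were divided among them was not tested.

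Of 14 glutathione S-transferase genes, for detoxifying enzymes, 5 were higher and 1 lower in Stupicke MeJA, with a median log2 fold change of 0.43 that was -0.04 without Stupicke MeJA 3. The count was 4 higher and 2 lower without that library and 8 higher and 1 lower without Stupicke MeJA 1. Solyc01g081250 had 97.1, 73.0 and 238 TPM in Stupicke MeJA, against 13.1, 18.4 and 6.86 TPM in Criollo MeJA (log2 fold change = 3.51 ± 0.43 SE, adjusted p = 3.7e-05). Solyc10g084400 had 75.3, 86.2 and 241 TPM in Stupicke MeJA, against 24.8, 44.7 and 41.3 TPM in Criollo MeJA (log2 fold change = 1.97 ± 0.35 SE, adjusted p = 8.1e-04). Solyc07g056470 had 3.98, 7.06 and 143 TPM in Stupicke MeJA, against 4.41, 5.52 and 4.10 TPM in Criollo MeJA (log2 fold change = 3.58 ± 0.90 SE, adjusted p = 0.00945). The first 2 genes were higher in every Stupicke library, whereas Stupicke MeJA 1 lay below all Criollo libraries in the last. Solyc01g081250 kept its call but had a log2 fold change of 2.83 without Stupicke MeJA 3. Solyc10g084400 kept its call but had a log2 fold change of 1.25 without Stupicke MeJA 3. Solyc07g056470 was not called without Stupicke MeJA 3 (adjusted p = 0.406), nor by limma on log2(TPM + 0.1) (adjusted p = 0.161), limma on log2(TPM + 1) (adjusted p = 0.155) or the fit of only the 6 libraries compared (adjusted p = 0.0680), and its log2 fold change was 0.38 without Stupicke MeJA 3. Solyc09g007150 was lower, with 3.62, 5.90 and 5.11 TPM in Stupicke MeJA, against 26.2, 17.8 and 20.7 TPM in Criollo MeJA (log2 fold change = -2.01 ± 0.24 SE, adjusted p = 2.9e-05). A pair of genes named after their values were seen also stood out in Stupicke MeJA 3. The xyloglucan endoglucanase inhibitor gene Solyc01g080010 had 8.34, 5.06 and 191 TPM in Stupicke MeJA, against 15.5, 12.7 and 17.0 TPM in Criollo MeJA (log2 fold change = 2.28 ± 0.87 SE, adjusted p = 0.0711), and without Stupicke MeJA 3 it was called lower, with a log2 fold change of -1.05 (adjusted p = 0.0416). The Ethylene Response Factor C.5 gene Solyc02g077370, which the filter left out, had 0.226, 0.208 and 18.1 TPM in Stupicke MeJA, against 0, 0 and 0.220 TPM in Criollo MeJA. What set this library apart was not tested.

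**Figure D3:**
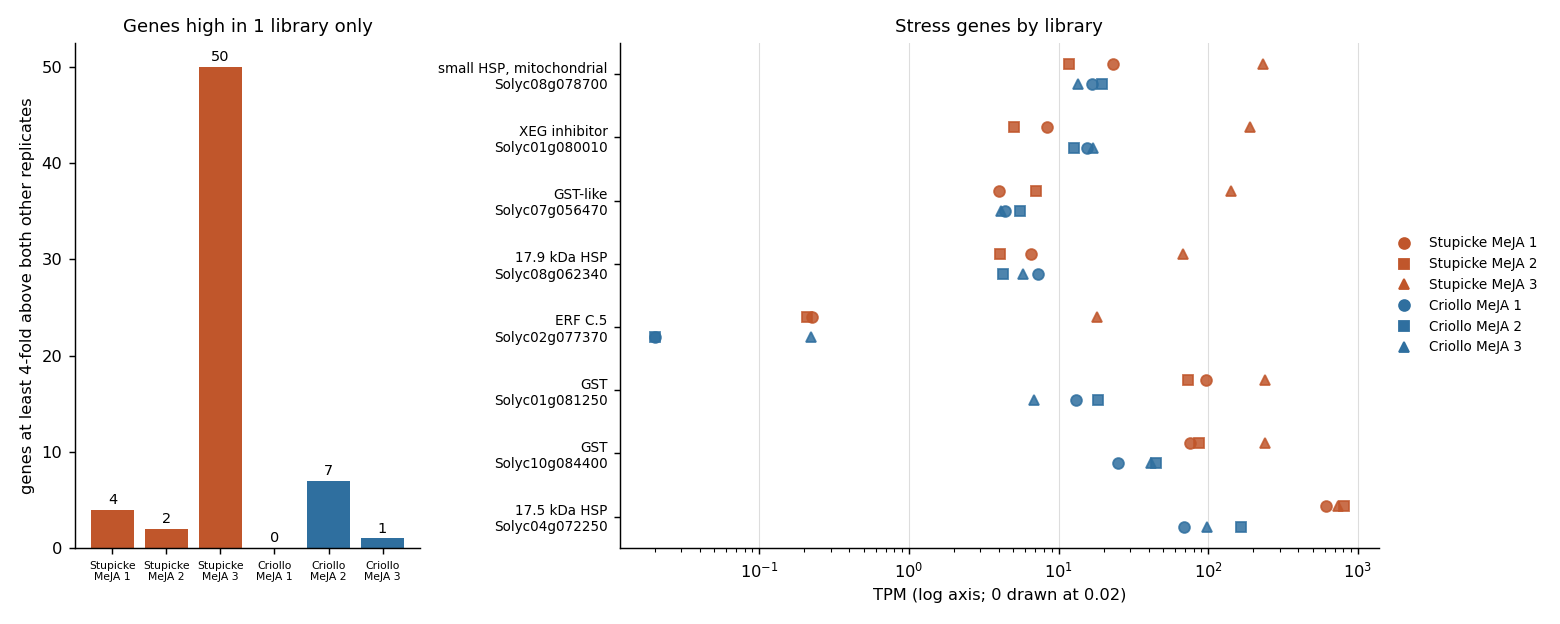
Left, number of genes in each library at least 4-fold above both other replicates of its group; right, TPM (log axis, 0 drawn at 0.02) of 8 stress-related genes in the Stupicke MeJA (orange, upper row) and Criollo MeJA (blue, lower row) libraries, with a symbol for each replicate. Stupicke MeJA 3 (orange triangles) had 50 such genes and lay far above all other libraries in the first 5 genes shown.

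The annotated genes with the largest differences were of several kinds. Patatin (Solyc08g006860), known from potato as a tuber storage protein with lipase activity, had 0.187, 0.0595 and 0 TPM in Stupicke MeJA, against 402, 435 and 396 TPM in Criollo MeJA (log2 fold change = -12.06 ± 0.70 SE, adjusted p = 7.3e-08). Its summed counts were 4 in Stupicke MeJA and 20069 in Criollo MeJA, so it had almost no reads in the Stupicke libraries. Whether the gene is unexpressed, absent or too divergent from the reference to be matched there cannot be told apart. Solyc08g006860 kept its call without Stupicke MeJA 1, with a log2 fold change of -13.28. The S-like ribonuclease gene Solyc07g006570 had 0, 0.244 and 0.248 TPM in Stupicke MeJA, against 10.5, 2.44 and 7.35 TPM in Criollo MeJA (log2 fold change = -5.11 ± 0.74 SE, adjusted p = 4.6e-04). The O-methyltransferase gene Solyc10g008120 had 0.463, 1.10 and 0.291 TPM in Stupicke MeJA, against 16.1, 12.1 and 15.7 TPM in Criollo MeJA (log2 fold change = -4.41 ± 0.44 SE, adjusted p = 5.6e-06). The cyclic phosphodiesterase gene Solyc03g005930 had 5.96, 5.22 and 4.36 TPM in Stupicke MeJA, against 84.4, 131 and 59.3 TPM in Criollo MeJA (log2 fold change = -4.04 ± 0.31 SE, adjusted p = 3.4e-07). For each of these genes all Criollo libraries lay above all Stupicke libraries, but the rule that picked them required groups without overlap. Also lower were the acyl-transferase gene Solyc12g096770 (log2 fold change = -3.53 ± 0.39 SE, adjusted p = 1.5e-05), the P450 gene Solyc07g014670 (log2 fold change = -2.67 ± 0.24 SE, adjusted p = 1.6e-06), the gene of a protein that assists the hypersensitive response, Solyc07g006560 (log2 fold change = -2.54 ± 0.47 SE, adjusted p = 0.00171), and the ABC transporter gene Solyc12g044820 (log2 fold change = -2.52 ± 0.22 SE, adjusted p = 1.5e-06). Solyc10g008120 kept its call but had a log2 fold change of -5.18 without Stupicke MeJA 2. Solyc12g096770 kept its call but had a log2 fold change of -4.21 without Stupicke MeJA 2. Solyc07g006560 kept its call but had a log2 fold change of -3.12 without Stupicke MeJA 3.

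In the other direction, the alcohol dehydrogenase-2 gene Solyc09g025210, which serves fermentation, had 266, 437 and 363 TPM in Stupicke MeJA, against 13.3, 19.9 and 12.2 TPM in Criollo MeJA (log2 fold change = 4.69 ± 0.50 SE, adjusted p = 1.0e-05). The gene Solyc09g008980, annotated only as a plant protein, had 69.4, 71.9 and 55.3 TPM in Stupicke MeJA, against 0.953, 2.83 and 2.72 TPM in Criollo MeJA (log2 fold change = 5.02 ± 0.53 SE, adjusted p = 8.9e-06). The TENA-E gene Solyc11g007560, of thiamine salvage, had 49.4, 79.5 and 61.3 TPM in Stupicke MeJA, against 5.71, 6.56 and 5.43 TPM in Criollo MeJA (log2 fold change = 3.55 ± 0.38 SE, adjusted p = 9.5e-06). Every Stupicke library was higher for these genes, again as the rule that picked them required. The chitin-binding lectin gene Solyc02g030247 had 7.04, 4.56 and 5.38 TPM in Stupicke MeJA, against 0.174, 0.636 and 0 TPM in Criollo MeJA (log2 fold change = 4.45 ± 0.56 SE, adjusted p = 5.0e-05). Solyc02g030247 kept its call but had a log2 fold change of 6.04 without Criollo MeJA 2 and 3.85 without Criollo MeJA 3. The receptor-like kinase gene Solyc08g074980 had 7.57, 19.1 and 17.0 TPM in Stupicke MeJA, against 1.15, 0.763 and 2.14 TPM in Criollo MeJA (log2 fold change = 3.57 ± 0.44 SE, adjusted p = 3.7e-05). The glycine-rich protein gene Solyc09g097760 had 410 counts in Stupicke MeJA and 2 counts in Criollo MeJA, a ratio of 222 (95% counting interval 61.3 to 1829, for counting error only). Solyc09g097760 kept its call but had a log2 fold change of 10.18 without Criollo MeJA 2 and 6.88 without Stupicke MeJA 3.

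Several of the most abundant transcripts that differed at least 2-fold had no annotation text. Higher in Stupicke was Solyc08g080480, the neighbour of the 2S albumin gene, with 2593, 3802 and 3001 TPM in Stupicke MeJA, against 217, 248 and 439 TPM in Criollo MeJA (log2 fold change = 3.52 ± 0.39 SE, adjusted p = 1.6e-05). Lower was Solyc10g075050, with 3542, 3985 and 3006 TPM in Stupicke MeJA, against 9798, 9915 and 10806 TPM in Criollo MeJA (log2 fold change = -1.43 ± 0.29 SE, adjusted p = 0.00262). The S-adenosylmethionine decarboxylase gene Solyc05g010420, of polyamine synthesis, had 419.9, 551 and 459 TPM in Stupicke MeJA, against 1174, 1075 and 1179.8 TPM in Criollo MeJA (log2 fold change = -1.15 ± 0.12 SE, adjusted p = 8.2e-06). None of these genes overlapped between the cultivars. Solyc01g095410 (log2 fold change = -1.86 ± 0.19 SE, adjusted p = 5.7e-06), Solyc07g054780 (log2 fold change = -1.95 ± 0.50 SE, adjusted p = 0.0106) and Solyc02g093040 (log2 fold change = -1.33 ± 0.25 SE, adjusted p = 0.00141) were lower as well. Solyc07g054780 was not called without Criollo MeJA 3 (adjusted p = 0.0533).

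On and off differences were few. Only 9 genes had 0 counts in all 6 libraries of one cultivar and at least 30 counts in each MeJA library of the other, 1 with reads only in Stupicke and 8 with reads only in Criollo. Their folds are lower bounds, for which the empty group was given 3 counts in all. Solyc08g082485 had 55 to 56 counts in Stupicke MeJA and 0 in Criollo MeJA, at least 59.8-fold higher in Stupicke. Solyc06g084625 had 0 counts in Stupicke MeJA and 175 to 223 in Criollo MeJA, at least 191-fold lower in Stupicke. Solyc04g150173 (0 counts in Stupicke MeJA and 134 to 183 in Criollo MeJA) was at least 150-fold lower, and the neighbours Solyc04g079020 and Solyc04g079010 at least 146-fold and 60.5-fold lower. None of the 9 genes had annotation text. Reads were assigned to a reference transcriptome of another tomato line, so that a gene without reads may be unexpressed, absent or too divergent to be matched, which cannot be told apart here.

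**Figure D4:**
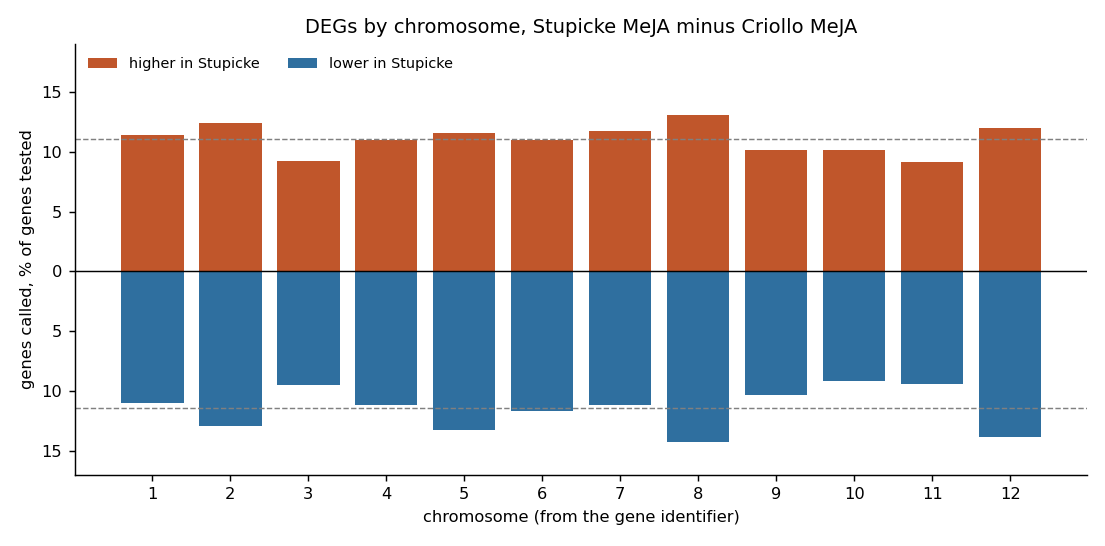
Genes called higher (orange, upward) and lower (blue, downward) in Stupicke MeJA than in Criollo MeJA, in percent of the genes tested on each of chromosomes 1 to 12, read from the gene identifiers; dashed lines mark the shares over all genes (11.03% higher and 11.4% lower). Chromosome 8 had the tallest bars in both directions.

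DEGs were found on all 12 chromosomes. The share of tested genes called ran from 18.6% on chromosome 11 to 27.3% on chromosome 8, and chromosome 12 followed with 25.8%. Differences above 4-fold made up 6.71% of the genes tested on chromosome 8 and 5.41% on chromosome 12, against 2.48% on chromosomes 3 and 11. Neighbouring DEGs of one direction formed 24 runs of at least 4 genes in the order of their identifiers. The longest runs were of 6 genes, all lower in Stupicke, on chromosomes 3 (Solyc03g116940 to Solyc03g116977) and 9 (Solyc09g061840 to Solyc09g061940). Within the chromosome 3 run the log2 fold changes lay between -1.73 and -2.34. Its member Solyc03g116970 had 2.70, 3.37 and 4.804 TPM in Stupicke MeJA, against 14.01, 13.9 and 11.3 TPM in Criollo MeJA (log2 fold change = -1.73 ± 0.21 SE, adjusted p = 3.0e-05). The chromosome 9 run held the sterol 3-beta-glucosyltransferase gene Solyc09g061860, whose product adds a sugar to sterols, with 3.41, 3.05 and 2.42 TPM in Stupicke MeJA, against 13.9, 9.68 and 12.2 TPM in Criollo MeJA (log2 fold change = -1.89 ± 0.18 SE, adjusted p = 3.2e-06), and a receptor-like kinase gene, Solyc09g061940 (log2 fold change = -1.68 ± 0.39 SE, adjusted p = 0.00606). Of the runs of 5 higher genes, the one from Solyc07g026705 to Solyc07g026740 had log2 fold changes between 2.37 and 3.62. Its member Solyc07g026710 had 151, 110.0 and 99.3 TPM in Stupicke MeJA, against 3.40, 26.6 and 0 TPM in Criollo MeJA (log2 fold change = 3.62 ± 0.61 SE, adjusted p = 6.2e-04), and in all 5 genes Criollo MeJA 2 was the highest Criollo library. Solyc07g026710 kept its call but had a log2 fold change of 6.12 without Criollo MeJA 2 and 3.03 without Criollo MeJA 3.

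Most of the MeJA-state difference was also called without the elicitor, in mock libraries that share no sample with it. Of the 4466 DEGs, 3983 (89.2%) were called in the same direction in mock seeds, 5 in the opposite direction and 478 not at all. The mock comparison called 8302 genes (41.7% of those tested), 20.1% higher and 21.6% lower, of which 48.0% were called under MeJA in the same direction. Of the mock DEGs 88.3% had a smaller absolute fold change under MeJA, with a median absolute log2 fold change of 0.56 under MeJA and 0.95 in mock. Over all tested genes these medians were 0.31 under MeJA and 0.43 in mock. The mock DEGs were chosen for their mock values, so a smaller value under MeJA is partly a product of that choice. For the storage and oil body genes the median log2 fold change was 1.41 under MeJA and 2.24 in mock, and for the LEA genes 0.48 under MeJA and 1.03 in mock.

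**Figure D5:**
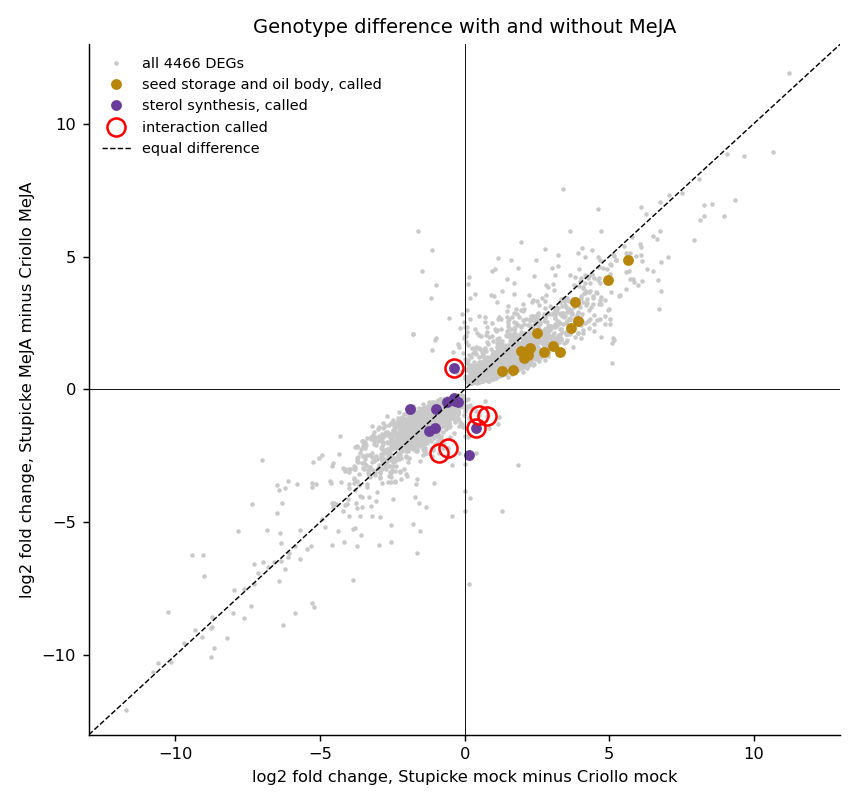
Log2 fold change of Stupicke MeJA over Criollo MeJA (vertical axis) against that of Stupicke mock over Criollo mock (horizontal axis) for the 4466 DEGs of the MeJA state (grey), with called storage and oil body genes (gold), called sterol synthesis genes (purple) and the 6 genes called in the interaction (red rings); the dashed line marks equal differences. All called storage genes lay below the dashed line, and the ringed genes lay between -1 and 1 in mock.

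The test of the difference itself, the interaction of cultivar and MeJA, called 6 genes (0.0301% of those tested) by edgeR, with 1554 genes at an unadjusted p under 0.05. DESeq2 called 98, which held all 6. The dioxygenase gene Solyc07g043420 had 772, 829.8 and 889.6 TPM in Stupicke mock, against 1474, 1565 and 1507 TPM in Criollo mock, beside its MeJA values given above, so the gap between the cultivars was wider under MeJA (difference of log2 fold changes = -1.62 ± 0.25 SE, adjusted p = 0.0377). The sterol C5(6)-desaturase gene Solyc02g086180 had 56.1, 63.6 and 87.1 TPM in Stupicke mock, against 63.5, 56.5 and 67.7 TPM in Criollo mock (-1.85 ± 0.28 SE, adjusted p = 0.0377). Squalene synthase (Solyc01g110290) had 15.3, 15.5 and 10.9 TPM in Stupicke mock, against 20.8, 22.5 and 21.05 TPM in Criollo mock (1.18 ± 0.16 SE, adjusted p = 0.0166). This gene was lower in Stupicke in mock seeds and higher under MeJA. The hydrolase gene Solyc03g123390 had 14.9, 10.2 and 8.60 TPM in Stupicke MeJA, against 25.99, 22.4 and 24.9 TPM in Criollo MeJA, with a difference of differences of -1.78 ± 0.28 SE, adjusted p = 0.0379. The Rossmann-fold gene Solyc06g083480 had 63.3, 67.2 and 61.5 TPM in Stupicke MeJA, against 122, 126 and 159.6 TPM in Criollo MeJA, with a difference of differences of -1.47 ± 0.17 SE, adjusted p = 0.00324. Both were higher in Stupicke in mock seeds, at 0.76 (adjusted p = 0.00734) and 0.51 (adjusted p = 0.00298) on the log2 scale, and lower under MeJA. The glycosyltransferase gene Solyc05g055343 was lower in both states, by more under MeJA (3.05, 2.35 and 2.73 TPM in Stupicke MeJA, against 16.03, 12.1 and 17.6 TPM in Criollo MeJA, with a difference of differences of -1.5 ± 0.23 SE, adjusted p = 0.0377). When single Stupicke or Criollo libraries were left out, the number of interaction genes lay between 1 and 5. It was 1 without Stupicke MeJA 3 or any of the Criollo mock libraries. It was 2 without Criollo MeJA 1, Criollo MeJA 3 or Stupicke mock 3, and 3 without Stupicke MeJA 1 or Stupicke mock 1. It was 4 without Stupicke MeJA 2 or Stupicke mock 2. It was 11 without Micro-Tom mock 3. Of the 6 genes, Solyc06g083480 was called in every one of these fits, and each of the other 5 lost its call in at least 1 of them.

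A list of MeJA-responsive genes was taken from Micro-Tom, a dwarf cultivar whose libraries do not enter the comparison. MeJA induced 1589 genes in Micro-Tom (7.98% of those tested), of which 503 (31.7%) were higher and 181 (11.4%) lower in Stupicke MeJA than in Criollo MeJA, with a median log2 fold change of 0.24. On the log2(TPM + 1) scale limma called 310 of them higher and 197 lower, with a median of 0.12. On the log2(TPM + 0.1) scale it called 295 higher and 177 lower, with a median of 0.13. Over all tested genes 11.03% were higher and 11.4% lower. In mock seeds 828 of the 1589 genes were higher and 183 lower. Among the 655 genes induced at least 2-fold in Micro-Tom, 184 were higher and 112 lower under MeJA. Genes whose proteins were found by the study in seed exudates, the material that seeds release during imbibition, gave 93 higher and 35 lower of 307 tested, with a median log2 fold change of 0.08 that was -0.04 on the log2(TPM + 1) scale. Without Stupicke MeJA 3 the count was 74 higher and 20 lower, and in the fit of only the 6 libraries compared 103 higher and 67 lower. The study found these proteins in exudates of MeJA-treated seeds pooled over the cultivars and could not quantify them. The genes on this list took 19.9 to 22.9% of all TPM in Stupicke MeJA and 13.2 to 16.1% in Criollo MeJA. Calls among other genes of like abundance were not counted. Their called members ran from -2.49 in the protease gene SBT3 (Solyc01g087850) to 4.86 in the 2S albumin gene Solyc08g080490. Solyc01g087850 was not called without Criollo MeJA 1, Criollo MeJA 3, Stupicke MeJA 1, Stupicke MeJA 2 or Stupicke MeJA 3 (adjusted p = 0.0520 to 0.123) when each was left out in turn, nor by DESeq2 (adjusted p = 0.0813), limma on log2(TPM + 0.1) (adjusted p = 0.102) or limma on log2(TPM + 1) (adjusted p = 0.417).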

How the data were processed

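Per the labels and the study's methods, the authors sequenced poly(A) libraries of primed whole seeds as paired 100-base reads on a BGISEQ-500 instrument. They assigned reads to the ITAG4.0 transcripts of the SL4.0 tomato genome with Salmon 1.2, and deposited estimated counts per gene and TPM values, which sum to a fixed total in each library. Estimated counts were rounded and tested with edgeR 4.0.16 in R 4.3.3 (TMM factors, filterByExpr, quasi-likelihood test, Benjamini-Hochberg adjustment over 19914 genes). All 18 libraries in 6 groups entered one fit with no replicate block. TPM gave the levels. A gene was called at an adjusted p under 0.05 with no minimum fold change, and SE was the absolute log2 fold change divided by the square root of F. On simulated counts the script called 166 of 200 genes changed by a log2 fold change of 1.5, with 8 false calls among 19914 genes. In the simulation all other genes had the same mean in every group and no library stood apart. Its false calls therefore do not measure those in the real libraries.

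Alternatives were DESeq2 1.42.0, limma 3.58.1 on log2(TPM + 1) and log2(TPM + 0.1), RLE size factors, other filters, a fit of the 6 libraries alone, a replicate block, a fold change minimum (log2 of 1), and fits without each of the 6 libraries compared, each of the 6 mock libraries of both cultivars, and Micro-Tom mock 3 in turn. No pair of libraries was identical. Gene names came from annotation text in the study's tables, since none of the identifiers matched the RefSeq gene table, and columns of the study's own comparisons in those tables were not used. No sequence is printed because none was matched. The genes named were, for each list, up to 3 called members per direction by absolute fold change and any member of lists of 12 or fewer. To these came the 10 annotated DEGs per direction with the largest fold change at a mean of at least 5 TPM and no overlap. The 6 most abundant DEGs per direction that differed at least 2-fold followed. The rest were the interaction genes, the genes without reads in one cultivar, some of the genes that the study names, and members of the longest runs. Exceptions are marked. The groups, lists and rules were chosen with earlier results of these data known. Counting intervals and floors cover counting error only.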

Additional observations from a re-analysis of the deposited data

Results flagged for a closer look

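The difference between Stupicke and Criollo under MeJA was itself different from that in mock seeds for 6 genes, by the interaction term of the edgeR fit over all genes. Values are the log2 fold change under MeJA minus that in mock. They were 1.18 for squalene synthase (Solyc01g110290), -1.85 for the sterol C5(6)-desaturase gene Solyc02g086180, -1.78 for the hydrolase gene Solyc03g123390, -1.504 for the glycosyltransferase gene Solyc05g055343, -1.47 for the Rossmann-fold gene Solyc06g083480 and -1.62 for the dioxygenase gene Solyc07g043420. Solyc06g083480 was called in every fit that left out 1 Stupicke or Criollo library, and each of the others lost its call in at least 1 such fit. In 3 of these genes the direction differed between the states with a call in each, since Stupicke was higher under MeJA and lower in mock for squalene synthase, and lower under MeJA and higher in mock for Solyc03g123390 and Solyc06g083480.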

How the results depend on the processing

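Of the 238 named genes tested, 153 were called and 99 kept their call and direction in every alternative. Without single libraries, the log2 fold change of Solyc01g080010 ranged between -1.05 (adjusted p = 0.0416) and 2.82, and that of Solyc08g062340 between -0.0070 (adjusted p = 1.00) and 2.80; both genes changed sign without Stupicke MeJA 3, where they were high, and had their highest value without Stupicke MeJA 2. Leaving out single libraries gave 2828 to 4752 DEGs (4466 with all), 2608 to 3841 DEGs shared with mock (3983) and 1 to 5 interaction genes (6), over the 6 MeJA libraries and the 6 mock libraries of both cultivars. The mock libraries were left out as an alternative added after seeing the data, and 10 called named genes then lost their call in at least 1 fit. Without the Micro-Tom mock 3 library there were 7224 DEGs, 6268 shared with mock, 11 interaction genes and 253 list calls (143). The fit of the 6 libraries alone gave 6375 DEGs and 245 list calls. DESeq2 gave 5113 DEGs, 4410 of them called by both tools, and 98 interaction genes, and limma on log2(TPM + 1) gave 40. With a minimum log2 fold change of 1 there were 2001 DEGs, 3916 in mock, 1704 shared and 86 list calls. Genes without reads in one cultivar numbered 18 at a minimum of 10 counts and 3 at 100 (9 at 30). On log2(TPM + 0.1) the median of all genes was -0.12, with 1380 higher and 2745 lower. The Micro-Tom list was drawn anew in its alternatives: without Micro-Tom mock 3, chosen for this list after seeing the data, it held 1628 genes, of which 916 were called (684 of 1589), and by DESeq2 1973 genes, of which 868 were called. Of the 1589 genes themselves, 660 were higher and 229 lower without Micro-Tom mock 3, and 550 higher and 199 lower by DESeq2. The cause of these changes was not tested. Replicate numbers did not pair the libraries (correlations of deviations 0.099, -0.050 and -0.014, with the own number best only for replicate 1), and a fit with a replicate block gave 4301 DEGs, 2101 higher and 2200 lower, with 7 named genes no longer called. With 3 libraries per group, small differences and genes of few counts were the least certain.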
